A study of Homo sapiens with 6 samples.

Results

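The genes described here are the HOX genes of the 4 human clusters, HOXA to HOXD. They were taken as every row of the expression table whose symbol is HOX, a cluster letter and a paralog number, with no reference to measured values. This gave 39 of 27788 gene symbols: 11 in HOXA, 10 in HOXB, 9 in HOXC and 9 in HOXD. Antisense and other noncoding RNAs of the clusters are not among them and are given separately.

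All 6 libraries were made from poly-A RNA of the BJ line, established human foreskin fibroblasts, on day 8 of reprogramming. Every group had received lentivirus with 2 polycistronic constructs, O2S and K2M, which together deliver OCT4, SOX2, KLF4 and MYC, so no library from uninfected cells is part of the comparison. Cells were grown in fetal bovine serum, moved to human embryonic stem cell medium and sorted by antibodies to the surface proteins CD13 and CD201. There were 3 sorted groups with 2 libraries each. Double-negative cells carried neither protein, CD201-only cells carried CD201 without CD13, and double-positive cells carried CD13 and CD201 together. No label says that the 2 libraries of a group came from separate infections or cultures, so the p-values measure only the spread between these libraries. A sorted gate can hold cells of several kinds, and in bulk RNA fewer expressing cells and less RNA per cell cannot be told apart.

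HOX genes encode homeodomain transcription factors that give cells their position along the body axis. Within a cluster they lie in the order in which they act along the body: low paralog numbers (anterior genes) in the hindbrain and neck, high numbers (posterior genes) in the lower trunk, the ends of the limbs and the genitals. Fibroblasts keep the HOX pattern of their body site in culture, which makes these genes a record of position. In the text below, anterior means paralog groups 1 to 4, central groups 5 to 8 and posterior groups 9 to 13.

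HOX RNA came mostly from HOXA and HOXD in all 3 groups, and the HOXD cluster differed most between them. HOXD RNA was lower in double-positive cells than in the groups that lacked CD13: the summed HOXD level was 40.74 ± 2.28 FPKM (SD, n = 2) in double-positive cells, 95.07 ± 0.607 in double-negative cells and 89.96 ± 0.254 in CD201-only cells. HOXA, HOXB and HOXC differed less, and some of their genes went the other way. FPKM counts fragments per kilobase of transcript and is scaled to library size. It takes account of transcript length, so levels of different genes can be set side by side.

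Promoter sequence is shown first, because the HOXD genes are the members that move together. RefSeq windows of the 250 bases before the annotated start (build GRCh38.p14) were at hand for 20 of the 39 genes, and for 12 of the 20 genes tested below. The tested genes HOXB2, HOXB13, HOXC6, HOXC9, HOXC10, HOXC11 and HOXD9 were among those with no entry. A pair of contrasting HOXD windows is printed whole, both on the plus strand of chromosome 2. HOXD1, at chr2:176188418-176188667, is the most abundant HOX gene of the double-negative and CD201-only groups, and HOXD4, at chr2:176151300-176151549, has the largest log2 change on log2(FPKM + 1) between double-negative and double-positive cells. Capitals mark CACGTG and the CCAAT box, which reads as ATTGG where it lies on the other strand.
HOXD1: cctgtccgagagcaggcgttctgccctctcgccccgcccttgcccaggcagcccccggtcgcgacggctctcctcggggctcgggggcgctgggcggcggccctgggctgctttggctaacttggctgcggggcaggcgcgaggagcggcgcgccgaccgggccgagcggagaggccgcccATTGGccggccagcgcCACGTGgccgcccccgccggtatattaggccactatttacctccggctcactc
HOXD4: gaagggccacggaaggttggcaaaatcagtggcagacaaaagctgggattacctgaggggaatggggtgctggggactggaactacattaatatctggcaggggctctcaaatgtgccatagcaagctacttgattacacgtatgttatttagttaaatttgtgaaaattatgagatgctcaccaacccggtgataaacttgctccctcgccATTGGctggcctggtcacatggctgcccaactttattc
The HOXD1 window is 74.8% G and C with 31 CpG dinucleotides, and the HOXD4 window is 47.6% with 4. The median of all 35116 RefSeq windows was 58% and 11 CpG. Both windows hold 1 CCAAT box, and CACGTG is in the HOXD1 window only.

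In all, 9 short motifs were searched on both strands: TATAAA as the TATA box, CCAAT as the box bound by NF-Y, GGGCGG as the GC box, TGANTCA as the AP-1 site, ATGCAAAT (the octamer bound by OCT4), CACGTG (the E-box bound by MYC and related factors), AGGTCA (nuclear receptor half-site), TGATNNAT (HOX with PBX) and TAATTA (homeodomain). A gene was counted when at least 1 of its windows held the letters. CACGTG was in 5 of the 7 tested HOXD genes with an entry, in 1 of 5 tested HOXA genes, and in 6.34% of all windows. Among untested genes, HOXA4 and a window of HOXA3 also held it, while HOXD12 did not. The contrast between HOXD and HOXA is thus smaller over all genes with an entry than over the tested ones. Among the 10616 windows with at least 21 CpG, the lowest number in a HOXD window that held CACGTG, the share was 9.25%. This motif was singled out after the matches were seen. The 6 matches in tested genes are printed with 20 bases on each side, so that their flanks can be compared, and capitals mark CACGTG.
HOXD1: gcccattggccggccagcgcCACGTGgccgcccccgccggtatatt
HOXD3: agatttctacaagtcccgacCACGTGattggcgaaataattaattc
HOXD10: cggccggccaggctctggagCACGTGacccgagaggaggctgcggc
HOXD11: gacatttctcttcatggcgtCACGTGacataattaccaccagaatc
HOXD13: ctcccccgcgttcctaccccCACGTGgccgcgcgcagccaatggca
HOXA9: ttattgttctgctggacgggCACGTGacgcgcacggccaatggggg
In the order printed they lie at chr2:176188595-176188640, chr2:176157240-176157285, chr2:176116652-176116697, chr2:176107170-176107215 and chr2:176092570-176092615 on the plus strand, and chr7:27165583-27165628 on the minus strand. From the end of CACGTG to the start site there are 47, 41, 100, 84, 125 and 65 bases. The 20 flanking bases differ between the genes. HOXD4 and HOXD8, which are among the HOXD genes with the largest changes below, hold no CACGTG in their windows.
Other motifs were shared more widely. CCAAT was in 5 of the 7 HOXD and 4 of the 5 HOXA genes against 32% of all windows, and GGGCGG in 5 and 2 against 42.6%. TATAAA was in 1 HOXD and 2 HOXA genes against 10.7%, TAATTA in 2 and 0 against 4.35%, TGATNNAT in 1 and 0 against 6.47%, and the octamer in 0 and 1 against 1.63%. TGANTCA (6.57% of all windows) and AGGTCA (12.1%) were in none of these 12 genes. A match describes the letters of the reference and is no measurement of binding.

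A gene was tested when its 6 libraries averaged 1 FPKM or more, and 20 of the 39 HOX genes reached it: 6 of 11 HOXA, 2 of 10 HOXB, 4 of 9 HOXC and 8 of 9 HOXD genes. By position these were 5 of 12 anterior, 3 of 11 central and 12 of 16 posterior genes. The 19 others are accounted for by their highest value in any library. In HOXA these were HOXA2 at 0.103, HOXA3 at 0.352, HOXA4 at 1.075, HOXA5 at 1.134 and HOXA6 at 0.601 FPKM. In HOXB they were HOXB1 at 0.0504, HOXB3 at 0.272, HOXB4 at 0.0558, HOXB5 at 0.0308, HOXB6 at 0.0335, HOXB7 at 0.113 and HOXB9 at 0.0254 FPKM, while HOXB8 was listed at 0 in all 6 libraries. HOXB was thus present almost only through HOXB2 and HOXB13. In HOXC the untested genes were HOXC4 at 0.764, HOXC5 at 0.503, HOXC8 at 0.337 and HOXC13 at 0.193 FPKM, with HOXC12 listed at 0 throughout, and in HOXD only HOXD12, at 0.328. The gene nearest under the minimum was HOXA4, with a mean of 0.82 FPKM, and the gene nearest above it was HOXD3, with 1.11.

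For 7 of these low genes the FPKM values were whole multiples of what 1 fragment is worth, within 0.1 of a fragment, and gave the fragments behind them. HOXD12 rested on 3 and 2 fragments in double-negative, 2 and 5 in CD201-only and 2 and 2 in double-positive libraries. HOXA2 had 9 fragments over all 6 libraries, HOXA6 24, HOXB4 4, HOXB6 2, HOXB7 6 and HOXC13 32. A single fragment was worth 0.02 to 0.088 FPKM for these genes, and they were too sparse for a comparison of groups.

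HOXD1 and HOXA10 were the leading genes in each library. HOXD1 took 33.8% and 34.4% of the summed HOX FPKM in the double-negative, 32.8% and 32.9% in the CD201-only and 21.9% and 20.6% in the double-positive libraries. HOXA10 took 21.4% and 22.1%, 23.9% and 23.4%, and 24.5% and 24.9%. Their order differed: HOXD1 stood above HOXA10 in the 4 libraries of the CD13-negative groups and below it in both double-positive libraries. HOXA11, HOXA9 and HOXA7 followed in every group, between 9.24 and 16.64 FPKM on average, and the remaining tested genes were lower than these. Among the middle genes, HOXB2 and HOXC10 lay within their spread of each other in double-negative cells (5.758 ± 0.26 and 5.34 ± 0.851 FPKM, SD, n = 2). The 2 genes were not tested against each other, and their differences between groups are given below.

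**Figure D1:**
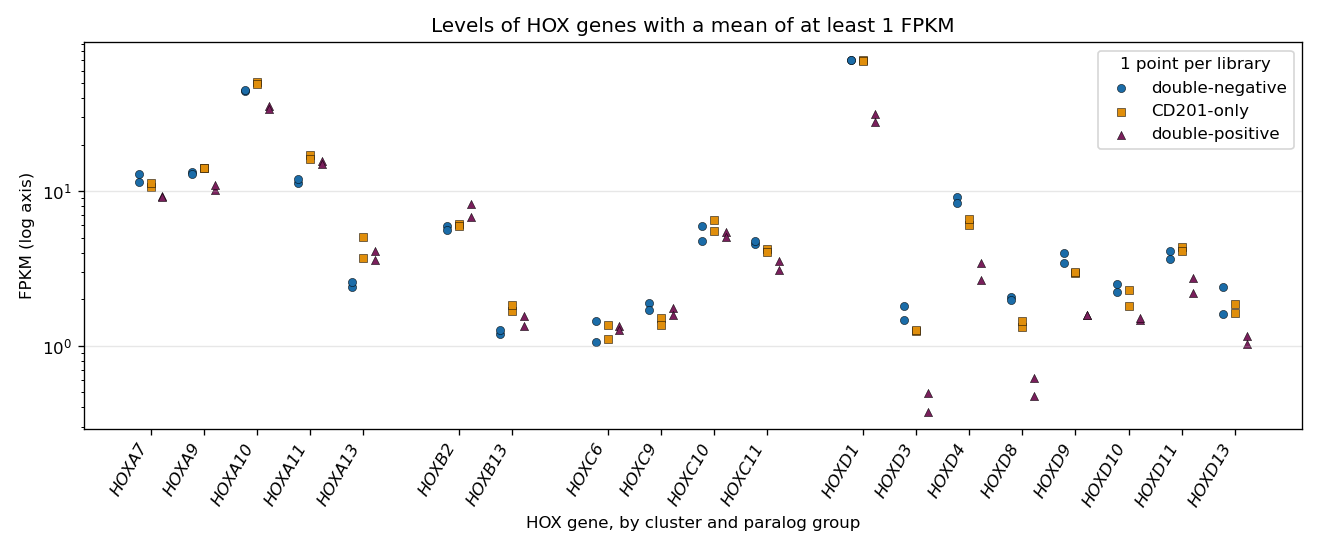
FPKM on a log axis of 19 of the tested HOX genes, by cluster and paralog number, with 1 point per library (blue circles double-negative, orange squares CD201-only, purple triangles double-positive). Double-positive points are the lowest for each of the 8 HOXD genes, for example 28.14 and 31.71 FPKM for HOXD1 against 69.37 to 70.49 in the other 4 libraries.

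Summed over all 39 genes, double-negative libraries had 206.7 ± 2.34 FPKM, CD201-only libraries 212.7 ± 2.23 and double-positive libraries 140.7 ± 5.38 (SD, n = 2). HOXA sums were 89.95 ± 0.432, 100.5 ± 0.655 and 78 ± 1.45 FPKM in the same order. The HOXD share of the HOX sum was 45.8% and 46.2% in the double-negative, 42.1% and 42.5% in the CD201-only and 29.3% and 28.6% in the double-positive libraries. HOXB ran the other way, from 7.254 ± 0.366 over 8.128 ± 0.137 to 9.209 ± 1.3 FPKM, and its double-negative and double-positive libraries did not overlap. HOXC was at 14.43 ± 0.931, 14.09 ± 1.18 and 12.77 ± 0.355 FPKM, with 13.02 FPKM in the higher double-positive library against 13.26 in the lowest of the other 4.

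Anterior genes summed to 92.04 ± 0.874, 87.42 ± 0.271 and 44.42 ± 3.14 FPKM in the same order of groups, and posterior genes to 97.4 ± 0.347, 110.1 ± 2.19 and 83.13 ± 2.39. HOXD1 alone carried most of the anterior signal. Without it the anterior sums were 21.57 ± 0.844, 17.62 ± 0.336 and 14.5 ± 0.618 FPKM. Posterior genes without HOXA10 summed to 52.46 ± 0.0625, 59.83 ± 0.95 and 48.4 ± 1.52. Posterior sums thus rested less on 1 gene than anterior sums did. Without these genes both sums were still lowest in double-positive cells.

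**Figure D2:**
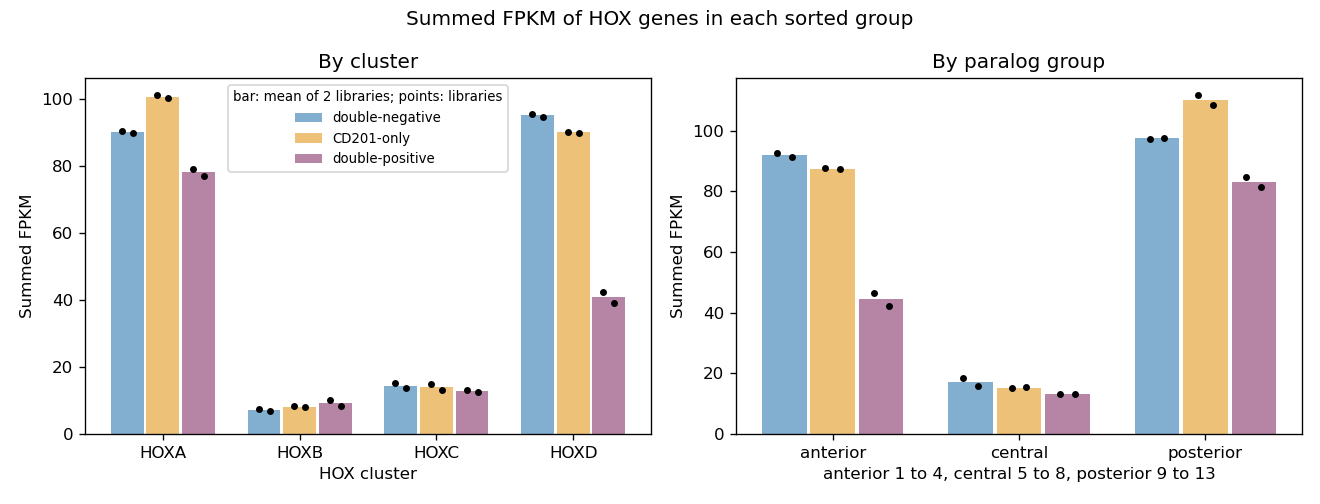
Summed FPKM of HOX genes by cluster (left) and by position (right) in the 3 sorted groups. Bars are means of 2 libraries, starting at 0, and black points are the libraries: the HOXD and anterior bars of the double-positive group (40.74 and 44.42 FPKM) are the lowest of their sets.

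Differences were tested with limma on log2(FPKM + 1) over all 12210 genes that reached the minimum, with Benjamini-Hochberg adjustment over all of them. Genes under an adjusted p of 0.05 are referred to as called. Log2 changes are on that scale, which understates the change of low genes, so ratios of mean FPKM are given as well. Both comparisons with double-positive cells use the same 2 double-positive libraries. In double-negative against double-positive cells, 13 of the 20 tested HOX genes were called higher and 3 lower, where 42.1% of all tested genes were called higher and 24.5% lower. In CD201-only against double-positive cells the numbers were 11 and 1 of 20, against 35.8% and 22.9% of all genes. The median HOX log2 change was 0.38 in the former and 0.27 in the latter, beside 0.11 and 0.08 for all genes tested. Without HOXD the median was 0.04 and 0.16, so the other 3 clusters together lay near the median of all genes.

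In the HOXD cluster 8 of 8 tested genes were called higher in double-negative than in double-positive cells, with a median log2 change of 0.87, and 7 of 8 in CD201-only than in double-positive cells, with a median of 0.62. HOXD3 and HOXD8 were under 1 FPKM in double-positive cells and passed the minimum only through the other groups, so their difference is partly built into the filter. The 6 genes HOXD1, HOXD3, HOXD4, HOXD8, HOXD9 and HOXD11 were called in both comparisons under every alternative processing and with each library left out.

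HOXD1, the anterior gene at the 3' end of the cluster, was at 70.49 and 70.45 FPKM in the double-negative, 70.23 and 69.37 in the CD201-only and 31.71 and 28.14 in the double-positive libraries. The CD13-negative groups lay close to each other and far above the double-positive pair. The log2 change against double-positive cells was 1.21 (SE 0.0524, limma adjusted p = 2.01e-06) for double-negative and 1.20 (SE 0.0524, adjusted p = 2.69e-06) for CD201-only cells. Between the CD13-negative groups it was 0.01 (SE 0.0524, adjusted p = 0.861).

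HOXD4, which helps to pattern the hindbrain and upper neck, was at 9.169 and 8.376 FPKM in the double-negative, 6.001 and 6.604 in the CD201-only and 2.676 and 3.413 in the double-positive libraries. The 3 groups did not overlap, with CD201-only cells between the others. Its log2 change was 1.28 (SE 0.101, limma adjusted p = 3.51e-05) against double-positive cells in the double-negative and 0.86 (SE 0.101, adjusted p = 0.00032) in the CD201-only group, or 2.88-fold and 2.07-fold in mean FPKM. HOXD3, its neighbour, was at 1.796 and 1.457, 1.241 and 1.267, and 0.375 and 0.496 FPKM in the same order of groups. It changed by 0.87 (adjusted p = 0.000291) and 0.65 (adjusted p = 0.00148), which on plain FPKM was 3.74-fold and 2.88-fold. HOXD3 and HOXD4 overlap in the genome, and how shared fragments were divided is not given in the sources used here, so their separate values are uncertain.

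HOXD8, the central gene of the cluster, was at 2.080 and 1.977 FPKM in the double-negative, 1.314 and 1.439 in the CD201-only and 0.472 and 0.622 in the double-positive libraries. Here too CD201-only cells lay between the others, with no overlap. The mean was 3.71-fold higher in double-negative and 2.52-fold higher in CD201-only than in double-positive cells, and log2 changes were 0.97 (adjusted p = 9.99e-05) and 0.62 (adjusted p = 0.00115).

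The posterior HOXD genes act in the limb, where HOXD11 helps to form the forearm and HOXD13 the digits and, with HOXA13, the external genitals. HOXD9 was at 3.437 and 3.991, 2.939 and 3.018, and 1.569 and 1.584 FPKM, with log2 changes of 0.87 (adjusted p = 9.73e-05) and 0.63 (adjusted p = 0.000617). HOXD11 was at 3.659 and 4.122, 4.337 and 4.102, and 2.741 and 2.180 FPKM, with changes of 0.50 (adjusted p = 0.00344) and 0.60 (adjusted p = 0.00177). The double-positive libraries were the lowest pair for both genes, and for HOXD11 the CD13-negative groups overlapped.
HOXD10 was at 2.236 and 2.524, 2.298 and 1.794, and 1.475 and 1.511 FPKM. It was called in double-negative cells (0.44, adjusted p = 0.00816) but not in CD201-only cells (0.28, adjusted p = 0.051). HOXD13 was at 2.383 and 1.600, 1.624 and 1.856, and 1.158 and 1.025 FPKM, with changes of 0.50 (adjusted p = 0.0135) and 0.39 (adjusted p = 0.0421). Both genes had calls that depended on single libraries. The HOXD10 call in double-negative cells was lost without their second library (adjusted p = 0.0536), and the HOXD13 call without their first (0.0601) or without the second double-positive library (0.0584). In CD201-only against double-positive cells the HOXD13 call was lost without any 1 of the 4 libraries compared (adjusted p 0.0776 to 0.168), under median-ratio and TPM rescaling (0.0644 and 0.0649) and with no filter (0.0967).

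Within HOXD the log2 change had a larger median at the anterior than at the posterior end. For double-negative cells, compared with double-positive ones, the median log2 change was 1.21 over the 3 anterior genes, 0.97 for HOXD8 and 0.50 over the 4 posterior genes, and in CD201-only cells it was 0.86, 0.62 and 0.49. HOXD9, beside HOXD8, was the largest of the posterior changes. On plain FPKM the ratios of double-negative to double-positive means were 2.36 for HOXD1, 3.74 for HOXD3, 2.88 for HOXD4, 3.71 for HOXD8, 2.36 for HOXD9, 1.59 for HOXD10, 1.58 for HOXD11 and 1.82 for HOXD13. The largest of these ratios belong to HOXD3 and HOXD8, the genes that passed the minimum only through the groups where they are high, and the central value is HOXD8 alone. No test was made over these 8 genes.

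**Figure D3:**
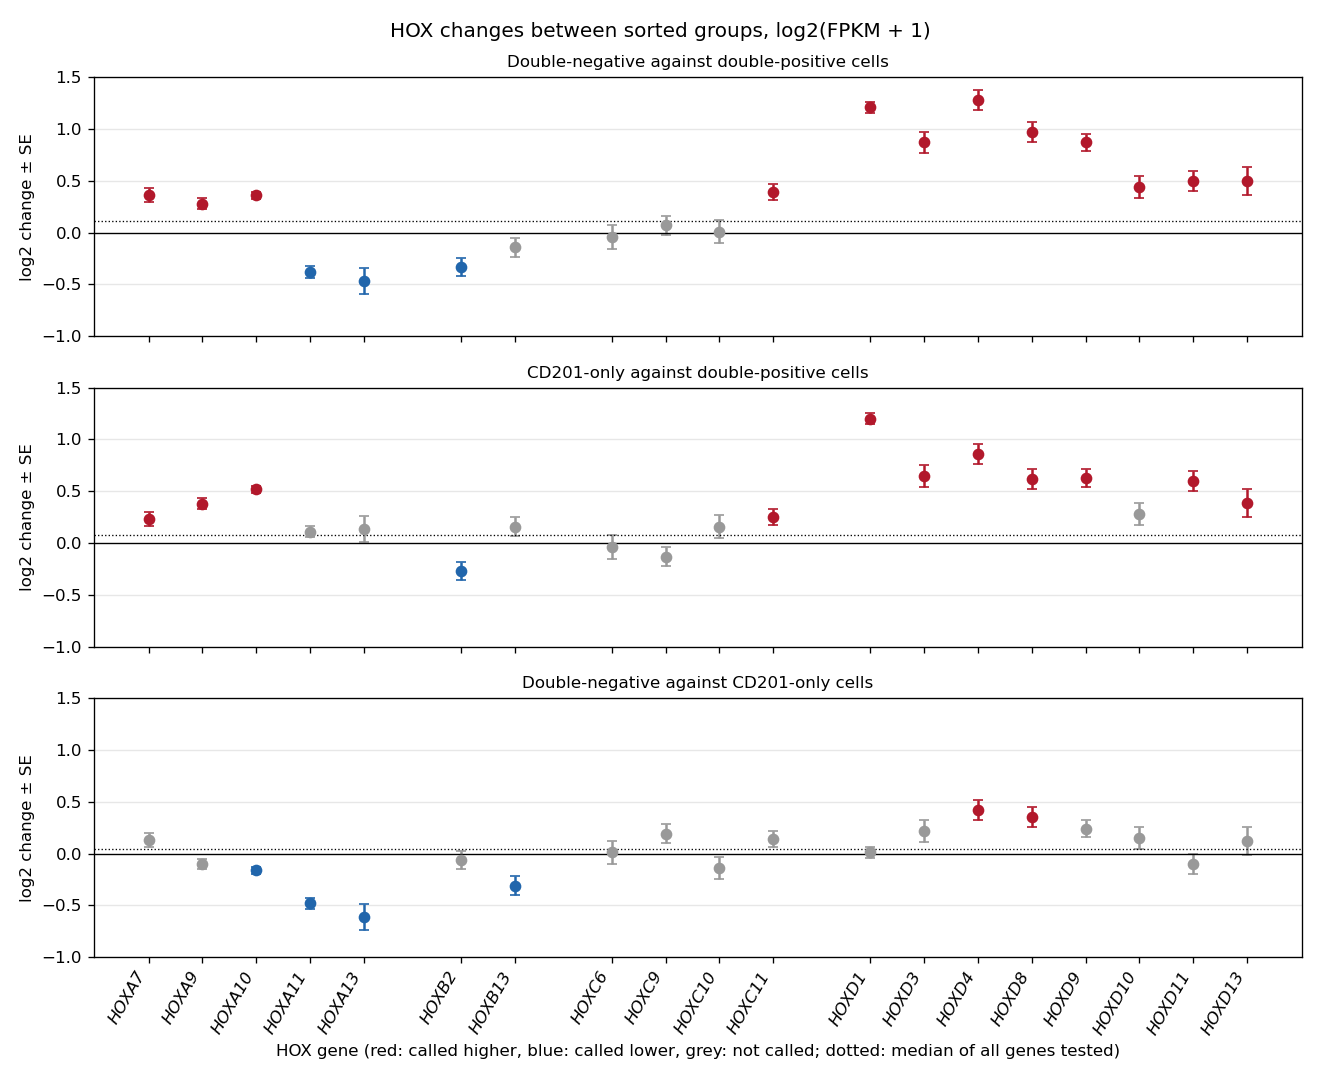
Log2 change of log2(FPKM + 1) with its standard error for 19 of the tested HOX genes in the 3 comparisons (red called higher, blue called lower, grey not called at a Benjamini-Hochberg adjusted p under 0.05, dotted line the median of all 12210 genes tested). The HOXD genes lie between 0.44 and 1.28 in double-negative against double-positive cells, and HOXA11, HOXA13 and HOXB2 lie below 0.

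HOXA was split along its length. HOXA7, HOXA9 and HOXA10, from the middle of the cluster, were lowest in double-positive cells. HOXA7 was at 12.88 and 11.38, 10.64 and 11.34, and 9.269 and 9.218 FPKM, with changes of 0.36 (adjusted p = 0.00267) and 0.23 (adjusted p = 0.0231). HOXA9, also known from blood stem cells, was at 13.21 and 12.89, 14.16 and 14.05, and 10.17 and 11.00 FPKM, with changes of 0.28 (adjusted p = 0.0024) and 0.38 (adjusted p = 0.000609). HOXA10, a gene of the lower trunk and uterus, was at 44.65 and 45.23, 51.13 and 49.37, and 35.34 and 34.12 FPKM.
For each of these genes neither CD13-negative group overlapped the double-positive libraries. The HOXA10 change was 0.36 (SE 0.0344, adjusted p = 8.93e-05) in double-negative and 0.52 (SE 0.0344, adjusted p = 1.81e-05) in CD201-only cells. The HOXA7 call in CD201-only cells was lost without the second CD201-only library (adjusted p = 0.121), without either double-positive library (0.0691 and 0.074), and under median-ratio and TPM rescaling (0.0962 and 0.105). HOXA9 and HOXA10 overlap through a read-through transcript, so their fragments may have been divided.

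The last genes of HOXA went the other way. HOXA11, which helps to form the forearm, was at 11.24 and 11.99 FPKM in the double-negative, 17.23 and 16.04 in the CD201-only and 15.69 and 15.08 in the double-positive libraries. HOXA13, a gene of the digits and the genital region, was at 2.415 and 2.580, 3.684 and 5.054, and 4.102 and 3.606 FPKM. Both were lowest in double-negative cells, with no overlap with the other groups. HOXA11 was lower in double-negative than in double-positive cells (log2 change -0.38, SE 0.0551, adjusted p = 0.000773), as was HOXA13 (-0.47, SE 0.126, adjusted p = 0.0135). CD201-only and double-positive cells did not differ beyond the spread for HOXA11 (0.11, adjusted p = 0.139) or HOXA13 (0.14, adjusted p = 0.388). The HOXA13 call was lost without the first double-negative library (-0.44, adjusted p = 0.0752) or the first double-positive library (-0.40, adjusted p = 0.0732).

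In HOXB only HOXB2 and HOXB13 were tested. HOXB2, a hindbrain gene, was at 5.942 and 5.574 FPKM in the double-negative, 6.147 and 5.956 in the CD201-only and 8.294 and 6.811 in the double-positive libraries. It was the only HOX gene called lower in both CD13-negative groups, by -0.33 (adjusted p = 0.0131) and -0.27 (adjusted p = 0.0336), and these calls were fragile. Without the first double-positive library they were -0.21 (adjusted p = 0.0562) and -0.15 (adjusted p = 0.155), and without the second double-negative library the former was -0.30 (adjusted p = 0.0808). The call in CD201-only cells was also lost without either double-negative library (0.0586 and 0.0582) and without either CD201-only library (0.088 and 0.126), so it held only without the second double-positive library. HOXB13, known from the prostate and lower body, was at 1.190 and 1.256, 1.672 and 1.835, and 1.567 and 1.351 FPKM and was called in neither comparison with double-positive cells (-0.14, adjusted p = 0.199, and 0.16, adjusted p = 0.161).
Leaving out the first double-positive library took the number of HOX genes called lower in double-negative cells from 3 to 1, which was HOXA11.

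HOXC was nearly level across the gates. HOXC6 was at 1.439 and 1.060, 1.363 and 1.105, and 1.338 and 1.256 FPKM, HOXC9 between 1.358 and 1.879 over the 6 libraries, and HOXC10 between 4.738 and 6.470. These 3 genes, which pattern the trunk and its motor neurons, were the only tested HOX genes that missed the threshold of limma's F test for any difference across the gates (adjusted p = 0.932, 0.19 and 0.372). The other 17 of 20 passed it, against 73.0% of all genes tested. HOXC11, a gene of the hindlimb, was at 4.567 and 4.747, 4.217 and 4.066, and 3.531 and 3.104 FPKM and was higher in double-negative (0.39, adjusted p = 0.00297) and CD201-only cells (0.25, adjusted p = 0.0233) than in double-positive cells. The CD201-only call was lost without either CD201-only library (0.102 and 0.064), without the second double-positive library (0.107) and under median-ratio and TPM rescaling (0.0745 and 0.0769). HOXC4, HOXC5 and HOXC6 share a first exon, so the value of HOXC6 depends on how fragments were assigned.

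By position, the tested anterior genes had a median log2 change of 0.87 in double-negative against double-positive cells (4 of 5 higher, 1 lower), the central genes 0.36 (2 of 3 higher) and the posterior genes 0.32 (7 of 12 higher, 2 lower). In CD201-only cells these medians were 0.65, 0.23 and 0.27. Both anterior medians are the values of HOXD3. That gene passed the minimum only through the groups where it is high, so these medians are partly built into the filter. All genes tested had medians of 0.11 and 0.08 in the same comparisons. In double-negative cells 42.1% of them were called higher and 24.5% lower. HOXD supplied 3 of the 5 anterior genes, and without it the anterior median rested on 2 genes, at 0.17 and -0.02, and the posterior median was 0.04 and 0.16. Most of the difference between the anterior and posterior medians thus came from HOXD genes.

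The CD13-negative groups were also compared with each other. Of the 20 tested genes 3 were higher and 4 lower in double-negative than in CD201-only cells, where 21.5% of all genes were called higher and 16.5% lower, so the number of calls was near the background, and no test of position was made. The higher genes were anterior or central and included HOXD4 (log2 change 0.42, limma adjusted p = 0.0159) and HOXD8 (0.35, adjusted p = 0.0249). The lower genes were posterior: HOXA10 (-0.16, adjusted p = 0.0109), HOXA11 (-0.48, adjusted p = 0.000599), HOXA13 (-0.61, adjusted p = 0.00896) and HOXB13 (-0.31, adjusted p = 0.0345). The median was 0.22 over the 5 anterior and -0.10 over the 12 posterior genes, beside 0.04 for all genes, and -0.32 over the 4 posterior HOXA genes.
HOXA11 kept its call under every alternative, with 11.61 ± 0.529 FPKM in double-negative against 16.64 ± 0.842 in CD201-only cells (SD, n = 2). The 6 others were lost without the first double-negative library, where adjusted p was 0.0731 for HOXA10, 0.0646 for HOXA13, 0.127 for HOXB13, 0.109 for HOXD4 and 0.102 for HOXD8, for example. Without the second double-negative library HOXA10 (0.0526), HOXB13 (0.0903), HOXD4 (0.0517) and HOXD8 (0.0713) were lost, and without the first CD201-only library HOXA10 (0.0717), HOXB13 (0.0755), HOXD4 (0.0929) and HOXD8 (0.113). HOXB13 (0.145) and HOXD8 (0.0618) were also lost without the second CD201-only library. With each library left out in turn, the count higher ran from 0 to 3 and the count lower from 1 to 4.

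Of 24 noncoding RNAs of the clusters in the table, 8 could be tested, and those called in HOXD and at HOXA11 went the way of the coding genes beside them. HOTAIR, the only other RNA called against double-positive cells, went the opposite way to HOXC11. HAGLR, antisense RNA of the HOXD cluster beside HOXD1, was at 7.513 and 7.545 FPKM in the double-negative, 6.607 and 6.403 in the CD201-only and 3.541 and 3.073 in the double-positive libraries. It was higher in both CD13-negative groups (0.99, adjusted p = 2.26e-05, and 0.80, adjusted p = 7.58e-05). HOXD-AS2, also antisense in HOXD, was higher by 0.97 (adjusted p = 0.000228) and 0.91 (adjusted p = 0.000378), and HAGLROS by 0.62 (adjusted p = 0.00525) and 0.44 (adjusted p = 0.0261).
HOXA11-AS, antisense to HOXA11, was at 8.091 and 6.803, 12.34 and 10.67, and 10.23 and 10.51 FPKM, lower in double-negative than in double-positive (-0.43, adjusted p = 0.00475) and CD201-only cells (-0.57, adjusted p = 0.00296), as HOXA11 was. HOTAIR, a noncoding RNA of the HOXC cluster known for its link to Polycomb and the HOXD cluster, was at 1.453 and 1.628, 1.539 and 2.125, and 2.350 and 2.571 FPKM. It was lower in double-negative than in double-positive cells (-0.45, adjusted p = 0.012) and was not called in CD201-only cells (-0.30, adjusted p = 0.063). HOXC11, the only HOXC gene called in these comparisons, was higher, by 0.39 and 0.25. In all, 3 of the 8 noncoding RNAs were higher and 2 lower in double-negative cells, near the 42.1% and 24.5% of all genes, and 3 higher and 0 lower in CD201-only cells, against 35.8% and 22.9%. Libraries were stranded, but whether the counting used strand is not given in the sources used here, so sense and antisense fragments of overlapping genes may not be separate.

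The genes beside HOXD did not share its pattern on both sides. EVX2 lies next to HOXD13 and was listed at 0 in all libraries, and LNPK, beyond it, was lower in both CD13-negative groups (-0.23, adjusted p = 0.031, and -0.22, adjusted p = 0.042). MTX2, next to HOXD1, encodes a mitochondrial import protein and was at 75.33 and 76.5, 66.57 and 59.59, and 51.95 and 50.26 FPKM. It was higher by 0.56 (adjusted p = 7.4e-05) and 0.30 (adjusted p = 0.00219). Over 16 tested genes near the 4 clusters, 9 were higher and 3 lower in double-negative cells (median 0.15), and 8 and 4 in CD201-only cells (median 0.13), against medians of 0.11 and 0.08 over all genes, of which 42.1% and 35.8% were higher and 24.5% and 22.9% lower. PRAC2, between HOXB9 and HOXB13, was lower in double-negative than in CD201-only cells (-0.69, adjusted p = 0.0127), the direction of HOXB13.

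HOX proteins bind DNA together with TALE homeodomain partners of the PBX, MEIS and PKNOX families. Of 10 tested TALE genes 7 were higher and 1 lower than in double-positive cells in each CD13-negative group, with medians of 0.27 and 0.23 beside 0.11 and 0.08 for all genes. The 7 include TGIF1 (0.56 and 0.30) and TGIF2 (0.19 and 0.19), TALE genes outside the PBX, MEIS and PKNOX families. Of all genes 42.1% were higher and 24.5% lower in double-negative, and 35.8% and 22.9% in CD201-only cells. MEIS2 was at 53.92 and 52.13, 53.09 and 54.78, and 34.22 and 31.33 FPKM (0.68, adjusted p = 1.82e-05, and 0.70, adjusted p = 1.85e-05), and PBX4 changed by 0.65 (adjusted p = 0.00667) and 0.84 (adjusted p = 0.00249). MEIS3 was the exception, at 15.14 and 16.11, 10.68 and 10.59, and 21.75 and 20.12 FPKM, and was lower by -0.40 (adjusted p = 0.000519) and -0.91 (adjusted p = 1.03e-05). The CDX genes, homeobox activators of central and posterior HOX genes, stayed under the minimum, with CDX1 highest in the double-positive libraries, at 1.486 ± 0.0899 FPKM (SD, n = 2). None of the 6 ParaHox and CDX genes in the table was tested.

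Trithorax proteins maintain and Polycomb proteins silence HOX transcription. Of 14 Trithorax, MLL and menin genes 10 were higher and 0 lower in double-negative cells (median 0.28), against 42.1% and 24.5% of all genes, led by ASH2L (0.81, adjusted p = 1.17e-06), PSIP1 (0.60, adjusted p = 0.000145) and WDR5 (0.45, adjusted p = 7.05e-05). In CD201-only cells 9 were higher and 0 lower (median 0.20), against 35.8% and 22.9%. Of 23 Polycomb genes 13 were higher and 5 lower in double-negative cells (median 0.34), and 11 and 6 in CD201-only cells (median 0.11). Beside the same shares of all genes, and medians of 0.11 and 0.08, the CD201-only values were near the background. PHC1 (0.97, adjusted p = 6.7e-05), RBBP7 (0.80, adjusted p = 1.88e-06) and the subunits CBX7 (-1.11, adjusted p = 1.83e-05) and PHC2 (-0.84, adjusted p = 3.24e-06) lay at the ends of that range in double-negative cells. Called genes of the Polycomb list thus lay on both sides, as did those of all genes.

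Retinoic acid is the best known inducer of anterior HOX genes. Of 12 tested genes of retinoic acid and related inputs, 3 were higher and 8 lower in double-negative cells (median -0.31), and 4 were higher and 4 lower in CD201-only cells (median -0.01), where 42.1% and 24.5%, and 35.8% and 22.9%, of all genes were higher and lower. CYP26B1, which degrades retinoic acid, was at 3.91 and 3.78, 1.659 and 1.695, and 28.72 and 27.5 FPKM, lower by -2.59 (adjusted p = 1.24e-07) and -3.44 (adjusted p = 5.03e-08). ALDH1A2, which makes it, was at 51.23 and 51.51, 56.38 and 59.08, and 20.9 and 22.03 FPKM, higher by 1.22 (adjusted p = 6.06e-07) and 1.39 (adjusted p = 4.79e-07). ALDH1A3, which also makes it, was lower by -0.40 (adjusted p = 0.00459) and -1.09 (adjusted p = 3.83e-05). The receptor RARG was lower by -1.09 (adjusted p = 1.58e-06) and -0.69 (adjusted p = 1.56e-05). Their part in the HOXD difference was not tested.

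Other transcription factors that mark fibroblast position mostly went the opposite way to HOXD. Of 19 tested, 3 were higher and 13 lower in double-negative cells (median -0.44), and 5 and 10 in CD201-only cells (median -0.33). Of all genes 24.5% and 22.9% were lower and 42.1% and 35.8% higher. FOXF1, a factor of gut and lung mesenchyme, was lower by -2.08 (adjusted p = 1.8e-06) and -1.50 (adjusted p = 9.97e-06), and TBX2 by -0.83 (adjusted p = 3.08e-05) and -1.84 (adjusted p = 1.06e-06). LHX9, a factor of limb and gonad, was higher by 1.85 (adjusted p = 2.39e-07) and 0.36 (adjusted p = 0.000544), while FOXF2 was lower by -1.57 (adjusted p = 2.84e-05) and -0.84 (adjusted p = 0.000795).

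Fibroblast markers were higher in the double-positive gate, the one with the least HOXD RNA. All 10 fibroblast markers were tested, and their summed level was 4241 and 4244 FPKM in the double-negative, 3822 and 3807 in the CD201-only and 8602 and 8509 in the double-positive libraries. Of the 10, 9 were lower in double-negative cells (median -1.55) and 10 in CD201-only cells (median -1.60), including COL1A1 (-2.47, adjusted p = 1.23e-08, and -2.79, adjusted p = 3.88e-09). Among all genes tested 24.5% and 22.9% were called lower in these groups, and 42.1% and 35.8% higher. THY1 was higher in double-negative cells (0.26, adjusted p = 2.61e-05). Pluripotent cell markers summed to 1757 and 1756, 1079 and 1038, and 1022 and 995.5 FPKM, with 7 of 7 tested higher in double-negative and 5 of 7 in CD201-only cells, a list that includes the delivered POU5F1 and SOX2. Most of each sum was POU5F1, at means of 893.4, 520.9 and 524.1 FPKM, and SOX2, at 746.7, 463.9 and 450.1. These were the genes not called in CD201-only cells, so the sum mainly follows the delivered factors. The part of these shifts in the HOX differences was not tested.
Markers of other cell types were also measured. Epithelial markers summed to 3064 to 3075, 3972 to 4043 and 2012 to 2080 FPKM, and neural markers to 353.3 to 357.9, 311.7 to 311.9 and 279.9 to 284.6. The neural markers did not move together. In double-negative against double-positive cells NES was lower (-0.48), while MAP2 (1.14), TUBB3 (0.60) and DLL3 (1.42) were higher. PAX6 and SOX1 stayed under the minimum. Keratinocyte markers summed to 10.46 to 11.3, 19.19 to 19.46 and 42.27 to 43.61 FPKM, endothelial markers to 17.48 to 18.09, 27.19 to 29.23 and 24.93 to 27.08, and blood markers to 11.15 to 13.21, 8.078 to 8.498 and 52.93 to 56.29. TEK made up most of the endothelial sum, at means of 13.71, 25.52 and 18.95 FPKM. The other tested endothelial markers split, with KDR higher (1.35 and 0.30) and ROBO4 lower (-2.21 and -1.61) than in double-positive cells. PECAM1 and CDH5 stayed under the minimum. The only tested blood marker was CD68, a lysosomal protein of macrophages, lower by -2.17 (adjusted p = 1.3e-06) and -2.60 (adjusted p = 8.52e-07), while CD3E and HBG1 were listed at 0 in all libraries. KRT14, a keratin of basal skin cells, was lower by -3.45 (adjusted p = 1.38e-07) and -3.05 (adjusted p = 3.48e-07). It was at 29.73 ± 0.861 FPKM in double-positive cells (SD, n = 2). KRT5 was lower in double-negative (-1.10, adjusted p = 1.97e-05) but higher in CD201-only cells (0.64, adjusted p = 0.000369), and KRT10 was called in neither (-0.07 and -0.08). Keratinocyte and blood marker sums were thus highest in the double-positive gate, mostly through KRT14 and CD68. Their part in the HOX differences was not tested.

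**Figure D4:**
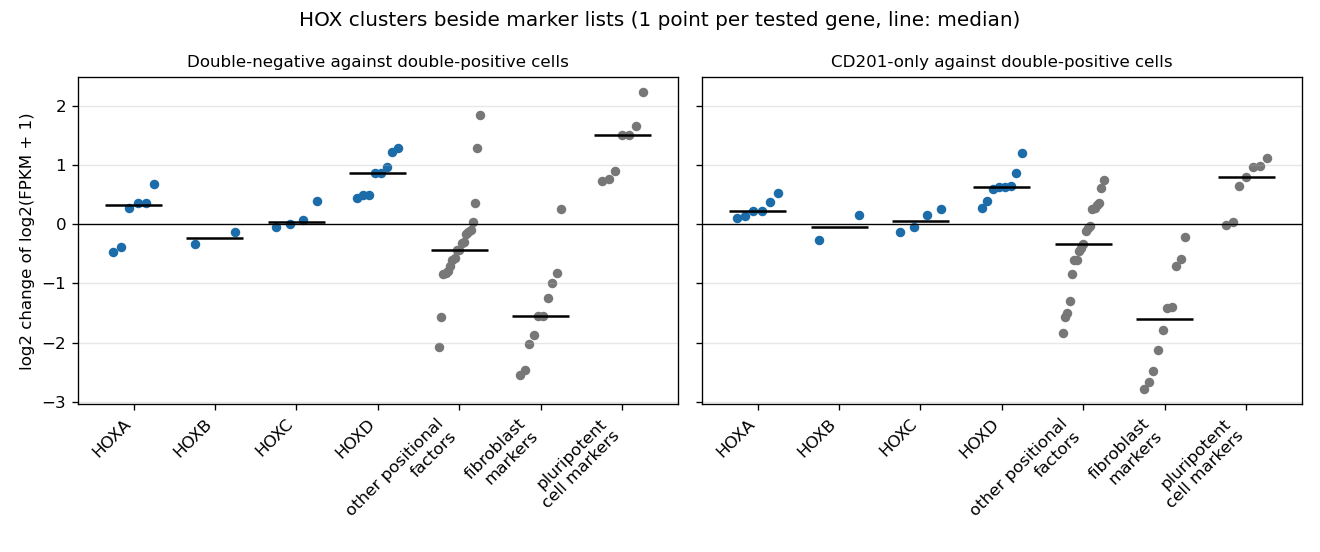
Log2 change against double-positive cells for each tested gene (1 point per gene, line at the median) in double-negative (left) and CD201-only cells (right). HOXD medians of 0.87 and 0.62 lie above 0, and fibroblast markers, at -1.55 and -1.60, and other positional transcription factors, at -0.44 and -0.33, lie below it.

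Summed FPKM over all genes was 513206 and 511947 in the double-negative and 521352 and 520703 in the CD201-only libraries. The double-positive libraries were lower, at 489358 and 489152. Relative depth, from the steps of low values, ran from 0.735 to 1, and the lowest correlation of log values within a group was 0.9919 against 0.9807 for the highest between groups. The 2 double-negative libraries may differ by little more than counting noise, which was not measured. Calls were therefore also made with them averaged into 1, and fewer HOX genes were then lower than in double-positive cells. Rescaling shifted the general level: with median-ratio rescaling the median log2 change of all genes in double-negative against double-positive cells went from 0.11 to 0.00 and the share of called genes that were higher from 63.2% to 48.3%. In CD201-only against double-positive cells that share went from 61% to 48.1%, and to 47.1% as TPM, and between the CD13-negative groups from 56.6% to 47.1%, and to 62.4% as TPM. The HOX median in the first comparison was then 0.27, so relative to all genes it was 0.27 both before and after. No HOX call in any comparison changed its direction under any alternative, while changes of sign in genes that were not called were not counted.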

How the data were processed

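The data were 6 libraries of poly-A RNA, 2 for each of 3 sorted groups, and the labels give the group of each. A single table of FPKM values, deposited by the authors, holds 27788 symbols in 6 library columns, with 0 columns that could not be assigned. STAR, Cuffnorm and the builds hg19 and GRCh37 are named per the submitters' processing notes. Versions, annotation and Cuffnorm's scaling were not given in the sources used here. Since scaling by Cuffnorm could shift whole libraries, rescaled values were tried as alternatives to the deposited ones. Depth is known only as a ratio between libraries, from the steps of low values.

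Values were taken as log2(FPKM + 1). The 12210 genes averaging 1 FPKM or more were fitted in limma 3.58.1 (R 4.3.3) with a coefficient per group and a variance trend, on 3 residual and 3.95 prior degrees of freedom. P-values were adjusted by Benjamini-Hochberg over all genes in each comparison, with calls at 0.05. The script was tested on simulated data. Tables and plots were made with Python 3.11.15, pandas 2.3.3, numpy 2.4.6 and matplotlib 3.10.9. Promoter windows came from RefSeq (GRCh38.p14), while the deposited values rest on the older build, so no gene coordinates were joined to them.

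HOX genes are given with values where their mean reached 1 FPKM and by their highest value otherwise. Some genes enter the counts, sums and medians but are not reported here by name. From each related list up to 4 called genes with the largest change could be named, and any marker of another cell type. HOTAIR, MTX2, LNPK, EVX2, CDX1, ALDH1A3, TGIF1 and TGIF2 fall outside that rule and were chosen after their values were seen. Members and lists were chosen with earlier results of these data known. Alternatives were pseudocounts of 0.1 and 0.5, other minimums, median-ratio, TPM and quantile rescaling, limma without trend or with a robust trend, a replicate block, only the libraries compared, and each library left out.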

Additional observations from a re-analysis of the deposited data

How the results depend on the processing

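Of 1080 single-gene results over all alternatives, 1007 stayed on the same side of the threshold, 62 were lost and 11 were gained. No called result changed direction. A change of sign in a gene that was not called in either fit was counted as staying on the same side. With each library left out in turn, HOX genes called higher in double-negative against double-positive cells numbered 12 to 13 (13 with all libraries) and lower 1 to 3 (3). In CD201-only against double-positive cells they were 9 to 11 (11) and 0 to 1 (1), in double-negative against CD201-only cells 0 to 3 (3) and 1 to 4 (4), and genes that differed among the 3 groups 14 to 16 (17). Averaging the double-negative libraries into 1 was an alternative chosen after seeing the data, because they may differ by little more than counting noise. Fewer HOX genes were then called lower in each of the 3 comparisons, and fewer were called higher in double-negative than in CD201-only cells. The 1 gene lower in CD201-only cells, HOXB2, was also lost with no filter and with only the libraries compared (0 lower), and the cause was not tested. A minimum of 2 FPKM left 13 HOX genes in place of 20. The anterior median in CD201-only against double-positive cells was 0.44 with groups 1 to 3 as anterior and 0.43 with groups 1 to 8, against 0.65. The log2 ratio of summed FPKM in double-negative against double-positive cells moved under median-ratio rescaling from 0.21 to 0.08 for HOXA, from 0.18 to 0.05 for HOXC and from 1.22 to 1.10 for HOXD, and as TPM to 0.14 for HOXA and 1.16 for HOXD. In CD201-only cells it moved from 0.37 to 0.28 for HOXA by either rescaling, and from 1.14 to 1.06 (median-ratio) and 1.05 (TPM) for HOXD. Library numbers 1 and 2 recur in every group, but no label ties them to a shared batch, and the deviations of same-numbered libraries correlated at 0.0761, -0.0727 and 0.117 over genes. With the replicate block, counts were 13 and 3, 11 and 1, and 3 and 3 (HOXB13 lost, adjusted p = 0.0528), and 16 genes differed among the groups. With 2 libraries a group, leaving 1 out leaves a single library that is assumed to vary like the others.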
